A study of Mus musculus with 8 samples.

Results

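The histone genes measured here were 27 of the 17098 genes that could be tested on the arrays. They were chosen by symbol, as the genes named for the linker histones (H1f), the clustered core histones (H2bc, H3c and H4c) and the variants (H2aj, H2ax, H2az, H3f3 and macroH2A), and each was read by the probe set with its highest mean over all arrays among those annotated to 1 gene. By class, 15 were replication-dependent histone genes, 11 of them on chromosome 13 and 4 on chromosome 3, and 12 were variants. No gene named H2ac had a probe set of its own, so the replication-dependent class held H1, H2B, H3 and H4 genes only.

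The RNA came from HPRT deficient mouse embryonic stem (ES) cells of strain C57BL/6, used at passages 19 to 22. All cultures had been grown on feeder-coated plates and then moved to gelatin. One group of 4 arrays was from cells given 2.5 µM cisplatin, a platinum drug that crosslinks DNA, for 8 h, and the other group of 4 was from cells given the solvent DMSO for the same time. Each group had replicates numbered 3 to 6. Nothing in the labels says that these were separate cultures, and the spread that the p-values are measured against may therefore be technical. The number of arrays limits the precision of every value.

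Histones package DNA into nucleosomes, which are built of H2A, H2B, H3 and H4 and bound on the outside by linker histone H1. Replication-dependent histone genes are transcribed in S phase to supply new nucleosomes, and their mRNAs normally end in a stem-loop bound by SLBP rather than in a poly(A) tail. Many variant genes are transcribed through the cell cycle into polyadenylated mRNAs, which was not tested for each variant measured here. Of the variant proteins, H2AX is known for its phosphorylation around DNA breaks and H3.3 for its deposition outside replication. In bulk RNA, a lower level in every cell and a smaller share of cells in the phase that makes the mRNA cannot be told apart.

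The 3 genes whose level passed the test were H1f2, H4c9 and H1f10, and the sequences before their start sites are given here. The windows are from RefSeq (GRCm38.p6), read 5′ to 3′ on the gene's strand and ending at the base before the start. Capitals mark the motifs found by search. These were the CCAAT box, the TATA box core TATAA and an element known from H1 promoters, AAACACA. H1f4, the other replication-dependent linker histone measured, is shown for comparison with H1f2. H1f2 lies at chr13:23738677-23738806 on the + strand, H1f4 at chr13:23622559-23622688 on the - strand, H4c9 at chr13:22041363-22041492 on the - strand and H1f10 at chr6:87981483-87981612 on the - strand.
H1f2: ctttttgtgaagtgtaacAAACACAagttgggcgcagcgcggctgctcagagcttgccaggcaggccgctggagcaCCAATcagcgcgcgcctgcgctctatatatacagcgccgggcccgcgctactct
H1f4: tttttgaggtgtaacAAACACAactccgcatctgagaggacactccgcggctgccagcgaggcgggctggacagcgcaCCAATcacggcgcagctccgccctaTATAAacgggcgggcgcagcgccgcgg
H4c9: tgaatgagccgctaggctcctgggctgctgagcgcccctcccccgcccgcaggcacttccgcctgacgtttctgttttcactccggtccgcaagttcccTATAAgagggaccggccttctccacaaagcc
H1f10: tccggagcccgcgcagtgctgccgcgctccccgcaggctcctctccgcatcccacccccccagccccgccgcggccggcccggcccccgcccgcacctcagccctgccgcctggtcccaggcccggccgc
H1f2 and H1f4 shared an arrangement, with AAACACA 112 and 115 bases before the start and CCAAT 54 and 52 bases before it. H4c9 held TATAA 31 bases before its start and neither of the other motifs in this window. H1f10 held none of the 3. H1f2 held no exact TATAA in this window, but near its start it has a run of alternating t and a that is not marked. Only exact matches were marked and counted. A match is a description of the letters and not a bound site.

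Both strands of the 250 bases before the start were searched in the 22 members with a promoter entry, and no motif overlapped another in the windows printed. TATAA was found in 6 of 11 replication-dependent genes and 2 of 11 variants, against 22.8% of all 32851 promoters of that length. CCAAT was in 6 of 11 replication-dependent genes and 7 of 11 variants, against 33.8% of all promoters. AAACACA was in 2 of 11 genes of each class against 6.25%, and the octamer ATTTGCAT in 1 of 11 of each against 1.6%. The members with AAACACA were H1f2 and H1f4 among the replication-dependent genes, and H1f6 and H3f3a among the variants.

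The table held log2 levels, so a difference of 1 means a doubling. The probes built to read background, with 24 G or C of 25 bases, had a mean level of 3.10, and 20 of the 27 members were above it in at least 1 group. The other 7 (H1f4, H2bc18, H2bc21 and H3c11 of the replication-dependent class, and the germ-line linker histones H1f6, H1f7 and H1f8) were below it in both groups, so no change of theirs is read. Over all genes, 1314 were lower and 1989 higher after cisplatin at an adjusted p under 0.05 (limma), and the median change was 0.01. When each array was centred on its median, which moved the median of all genes to -0.12, the split became 3925 lower and 1087 higher. All 8 measured ES cell markers were above background, at mean levels of 9.42 to 13.41, and 4 of them (Esrrb, Zfp42, Utf1 and Nanog) fell. Of 10 fibroblast markers, which feeder cells would express, Thy1 and Mmp2 rose, and 4 were below background in both groups (among them Fbln2, which passed the test there). The others did not pass the test (adjusted p of 0.494 to 0.882, limma). They were Col1a1 at -0.09, Col3a1 at -0.06, Lox at 0.32 and Twist1 at 0.17. The mean over the 10 ranged from 3.53 to 3.99 on the cisplatin arrays and from 3.47 to 3.73 on the control arrays, and its part in the histone results was not tested.

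After cisplatin 3 of the 27 histone genes were lower and none was higher at this threshold. The background over all genes was 19.3% called in either direction, 7.69% called lower and 11.6% called higher. Of the 15 replication-dependent genes 2 fell, H1f2 and H4c9, and of the 12 variants 1 fell, H1f10. Among members above background in at least 1 group, the change was negative in 10 of 11 replication-dependent genes and in 5 of 9 variants. Over all genes above background, 5116 of 11739 were negative. Among the 10, H3c1 (-0.04 ± 0.13), H3c4 (-0.04 ± 0.10) and H3c15 (-0.06 ± 0.10, SE) were under their SE. These turned positive when some single arrays were left out. The replication-dependent genes varied together from array to array, so the count is not one of separate readings. The median change was -0.09 over all 15 replication-dependent genes and 0.05 over all 12 variants. With only genes above background, the medians were -0.13 (11 genes) and -0.09 (9 genes), against 0.03 over the 11739 genes, so the positive median of the variants rested on genes below background. With the arrays centred, 6 replication-dependent genes and 4 variants were lower and none higher, where 23.0% of all genes were lower and 6.36% higher.

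**Figure D1:**
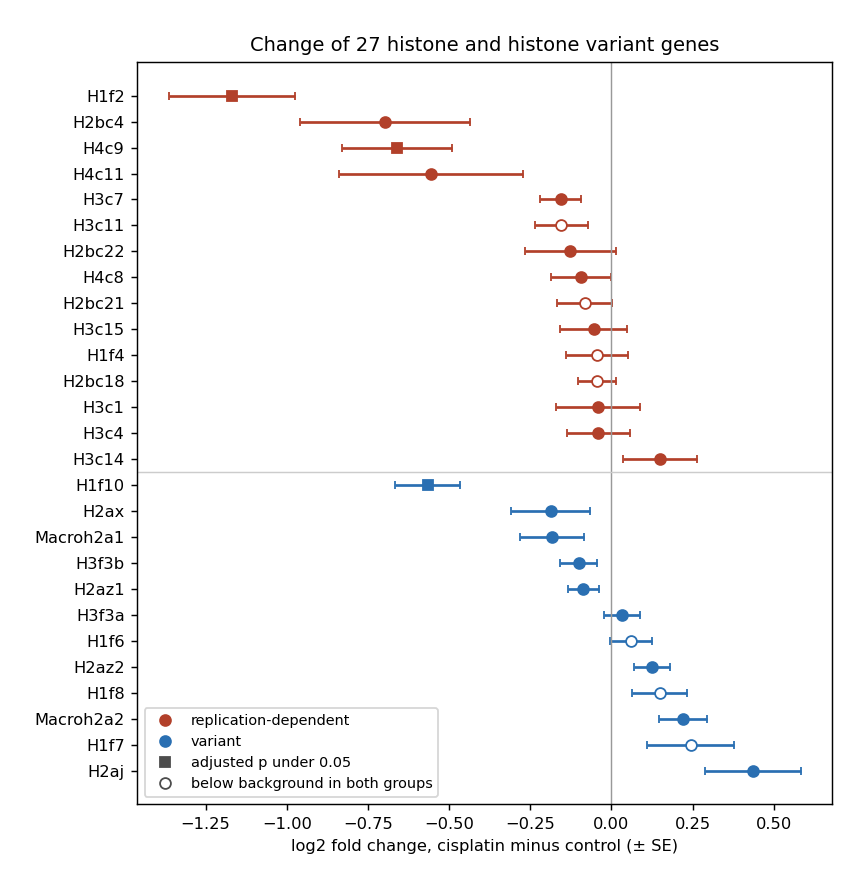
Difference of mean log2 level, cisplatin minus control, for the 27 histone genes (points, with the standard error as bars), replication-dependent genes in red above and variants in blue below. The 3 squares that passed the test (H1f2, H4c9 and H1f10) are all on the negative side, and open points mark the 7 genes below background.

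Linker histone H1f2, which encodes one of the somatic H1 proteins made in S phase, had the most negative change of the 27. Its levels on the cisplatin arrays 3, 4, 5 and 6 were 4.78, 5.25, 5.46 and 4.99. On the control arrays of the same numbers they were 6.18, 6.27, 6.81 and 5.91. Every cisplatin array was below every control array. The mean went from 6.29 ± 0.38 (SD, n = 4) to 5.12 ± 0.30 (SD, n = 4), a 2.25-fold lower level (log2 change -1.17 ± 0.19 SE, adjusted p = 0.00225, limma). A second probe set of the gene was also lower, by -0.84 ± 0.20 (SE, adjusted p = 0.0153, limma with each probe set as its own feature, where 16.4% of probe sets were called). H1f4, whose promoter window resembles that of H1f2, was below background in both groups, so the pair could not be compared by level.

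Histone H4 gene H4c9 was the other replication-dependent gene that fell. Its levels were 4.40, 5.04, 4.98 and 5.17 on the cisplatin arrays and 5.33, 5.74, 5.80 and 5.36 on the control arrays, in the order 3, 4, 5 and 6. The groups did not overlap. The means were 4.90 ± 0.34 and 5.56 ± 0.25 (SD, n = 4 each), a 1.58-fold lower level (log2 change -0.66 ± 0.17 SE, adjusted p = 0.0219, limma). The call was lost without control replicate 4 (adjusted p = 0.0606) or control replicate 5 (adjusted p = 0.0631), where the change was -0.60 and -0.58, and its adjusted p ranged from 0.00385 to 0.0631 over the alternatives. H4c11, another H4 gene, read 2.74, 3.76, 3.12 and 3.28 after cisplatin and 3.51, 4.06, 4.43 and 3.13 in controls. These groups overlapped, and the change of -0.56 ± 0.28 (SE) did not pass the test (adjusted p = 0.220, limma). The third H4 gene, H4c8, lay near background, with a change of -0.09 (adjusted p = 0.566, limma).

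**Figure D2:**
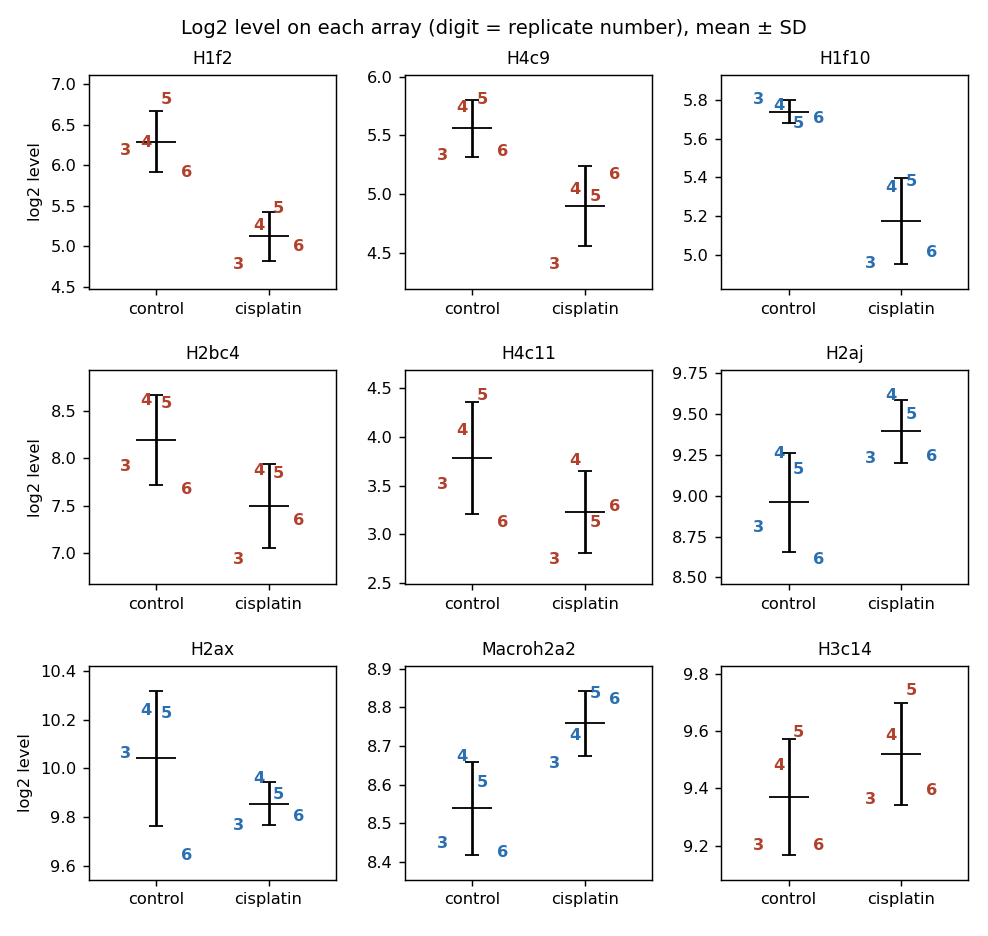
Log2 level on each array (each drawn as its replicate number) for histone genes the text describes, with the group mean and SD as bars. H1f2, H4c9 and H1f10 have no overlap between the groups. In H1f2, H2bc4 and H2aj, among others, the replicates 4 and 5 are above 3 and 6 in both groups.

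Among the H2B genes, H2bc4 had a mean difference as large as that of H4c9 with a wider spread. It read 6.93, 7.87, 7.84 and 7.34 on the cisplatin arrays and 7.91, 8.62, 8.58 and 7.67 on the control arrays. The groups overlapped, with cisplatin arrays 4 and 5 above control array 6. The change was -0.70 ± 0.26 (SE, adjusted p = 0.0944, limma) and did not pass the test. Without control replicate 6 it did (adjusted p = 0.0467), with a range of 0.00686 to 0.218 over the alternatives. It also passed with centred arrays (adjusted p = 0.0269), an intensity trend (adjusted p = 0.0252) and a replicate block (adjusted p = 0.00686). H2bc22 read 9.30 to 9.64 after cisplatin and 9.25 to 9.87 in controls, with a change of -0.13 ± 0.14 (SE, adjusted p = 0.610, limma). A second H2bc22 probe set gave -0.13 as well.

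The 6 replication-dependent H3 genes gave no call, and of the 5 above background 4 had a negative change. H3c7 was the one whose groups did not overlap, with 3.82, 3.99, 3.94 and 4.09 after cisplatin and 4.11, 4.14, 4.09 and 4.11 in controls. Its highest cisplatin array and lowest control array were only 0.00037 apart. The change of -0.16 ± 0.06 (SE) had an adjusted p of 0.121 (limma), with a range of 0.00639 to 0.313 over the alternatives. It passed the test with centred arrays (-0.29, adjusted p = 0.00639) and with quantile normalization again (-0.28, adjusted p = 0.00795). H3c14 was the only replication-dependent gene with a positive change, 0.15 ± 0.11 (SE, adjusted p = 0.431, limma). H3c1 changed by -0.04 ± 0.13 (SE, adjusted p = 0.875, limma). H3c4 changed by -0.04 (adjusted p = 0.837, limma) on the probe set used and by -0.31 ± 0.11 (SE) on its other, and H3c15 by -0.06 near background (adjusted p = 0.785, limma). H3c1 and H3c14 were read through probe sets whose suffix marks probes shared by several transcripts, so their values may be those of other near-identical H3 genes. The other H3c1 probe set was below background.

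The groups did not overlap in 6 of the 27 members, against 24.3% of all genes. In the replication-dependent class these were H1f2, H4c9 and H3c7, all with cisplatin below control. In the variants they were H1f10 and H2az1, below control, and H2az2, above it. In H3c7 and H2az2 the gap between the groups was under 0.01.

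How the array reads these genes bears on every value above. Of the 15 replication-dependent genes, 4 had a mean log2 level of at least 7. They were H2bc4 and H2bc22, whose RefSeq spans of 8.28 and 14.1 kb are far longer than a typical histone gene, and H3c1 and H3c14 with their shared probe sets. Apart from H2bc21 (2.67 kb), the other replication-dependent genes had spans of 0.403 to 0.903 kb. Longer forms of such genes can carry a poly(A) tail. Whether the array reads polyadenylated or stem-loop forms of these mRNAs was not tested, and the levels of different probe sets are not set against each other.

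**Figure D3:**
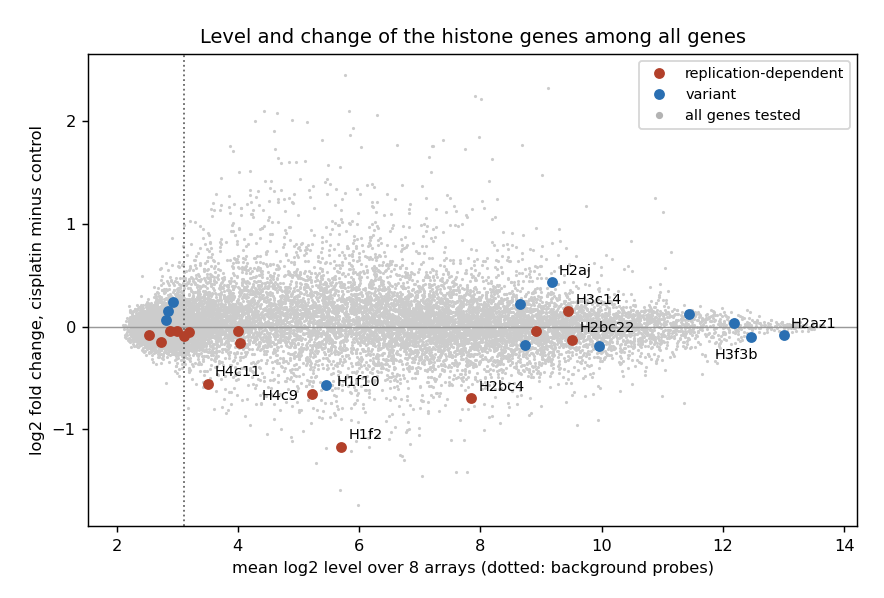
Mean log2 level over the 8 arrays (horizontal) against the change after cisplatin (vertical) for all 17098 genes in grey, replication-dependent histone genes in red and variants in blue, with the level of the background probes as a dotted line. H1f2, H4c9 and H1f10 are above the dotted line, and 7 histone genes are left of it in both groups.

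The variant that fell was H1f10, a replication-independent linker histone. Its levels were 4.96, 5.35, 5.38 and 5.01 on the cisplatin arrays and 5.80, 5.77, 5.68 and 5.71 on the control arrays. Every cisplatin array was below every control array, and the spread was wider after cisplatin. The means were 5.17 ± 0.22 and 5.74 ± 0.06 (SD, n = 4 each), a 1.48-fold lower level (log2 change -0.57 ± 0.10 SE, adjusted p = 0.00327, limma). H1f10 is on chromosome 6, apart from the histone clusters, and was read by 1 probe set.

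The H2A variants did not move as a class. H2aj, a variant close in sequence to canonical H2A, had the most positive change of the 27 genes. It read 9.23, 9.62, 9.49 and 9.24 after cisplatin and 8.81, 9.26, 9.16 and 8.61 in controls. Arrays 4 and 5 were the higher ones in both groups and the groups overlapped. The change of 0.44 ± 0.15 (SE) did not pass the test (adjusted p = 0.0677, limma), and did without control replicate 4 (adjusted p = 0.0345, range over the alternatives 0.00673 to 0.162). It also passed with an intensity trend (adjusted p = 0.0140) and a replicate block (adjusted p = 0.00673). The other 2 H2aj probe sets gave 0.16 and -0.03.

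Macroh2a2, which encodes a variant with a large additional domain, read 8.65, 8.73, 8.84 and 8.82 after cisplatin and 8.45, 8.67, 8.61 and 8.43 in controls. Its change was 0.22 ± 0.07 (SE, adjusted p = 0.0620, limma), and passed the test without control replicate 4 (adjusted p = 0.0394, range 0.0171 to 0.812). It also passed with an intensity trend (adjusted p = 0.0171) and without dim genes (adjusted p = 0.0428). A second probe set gave 0.05 ± 0.11 (SE), and centring the arrays gave 0.09. Its paralog Macroh2a1 had the opposite sign, -0.18 ± 0.10 (SE, adjusted p = 0.248, limma). The difference between the paralogs was not tested.

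H2ax, the variant whose protein is phosphorylated around DNA breaks, read 9.77, 9.96, 9.89 and 9.80 after cisplatin. The controls read 10.06, 10.24, 10.23 and 9.64, so control array 6 was below all 4 cisplatin arrays and the other controls were above them. The change of its mRNA was -0.19 ± 0.12 (SE, adjusted p = 0.350, limma). Without control replicate 6 it was -0.32 (adjusted p = 0.0160, range 0.0160 to 0.599).

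The variants H2az1 and H2az2 encode near-identical H2A.Z proteins, which are placed at promoters by the SRCAP and p400 complexes. H2az1 read 13.01, 12.92, 12.97 and 12.93 after cisplatin and 13.06, 13.04, 13.04 and 13.03 in controls. H2az2 read 11.49, 11.49, 11.60 and 11.46 after cisplatin and 11.31, 11.36, 11.45 and 11.41 in controls. The groups did not overlap in either gene, with opposite signs, yet the changes were small. They were -0.09 ± 0.05 for H2az1 (SE, adjusted p = 0.262, limma) and 0.13 ± 0.06 for H2az2 (SE, adjusted p = 0.164, limma), and a second H2az2 probe set gave -0.10. With the arrays centred, H2az1 was at -0.22 (adjusted p = 0.0172) and H2az2 at -0.01. Over the alternatives the adjusted p of H2az1 ranged from 0.0154 to 0.418.

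Both H3.3 genes, which encode the same protein, showed little difference. H3f3a read 12.16, 12.22, 12.24 and 12.16 after cisplatin and 12.16, 12.17, 12.25 and 12.07 in controls, with a change of 0.03 ± 0.06 (SE, adjusted p = 0.754, limma). H3f3b read 12.39, 12.32, 12.48 and 12.46 after cisplatin and 12.54, 12.52, 12.57 and 12.43 in controls, with a change of -0.10 ± 0.06 (SE, adjusted p = 0.280, limma). A second probe set of each gave 0.06 for H3f3a and -0.11 for H3f3b.

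**Figure D4:**
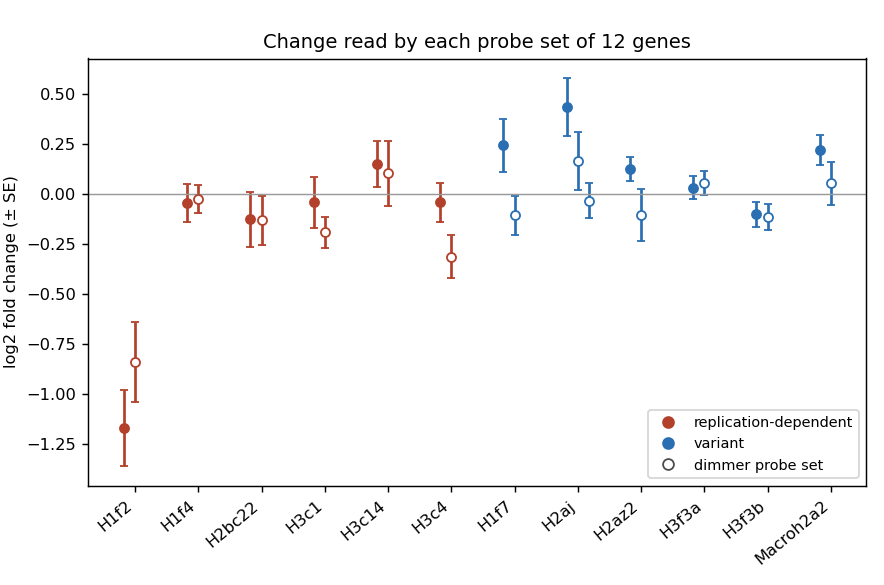
Change after cisplatin (log2, with standard error) of every 1-gene probe set of the 12 members that have more than 1, filled for the probe set used and open for the others. In 9 of the 12 all probe sets share a sign, and in H1f2 both are on the negative side.

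Within each group the replication-dependent genes also varied together from array to array, a pattern seen after the data were examined. Replicates 4 and 5 were above replicates 3 and 6 in both groups in 6 of 15 replication-dependent genes (H1f2, H2bc4, H2bc22, H3c1, H3c14 and H3c15) and in 3 of 12 variants (H2aj, H2ax and H3f3a), against 6.57% of all genes. The same order was found in 6 of 24 G2 and mitosis genes and in 2 of 25 S-phase genes, and in 3 of 10 histone genes outside the symbol rule. Over the 11 replication-dependent genes above background, the median deviation from the group mean on arrays 3, 4, 5 and 6 was -0.16, 0.11, 0.14 and -0.13 after cisplatin and -0.14, 0.11, 0.25 and -0.20 in controls. On cisplatin array 3 all 11 were below their group mean, and on control array 6 it was 10 of 11. The 9 variants above background had median deviations of -0.09 to 0.07. The median SD within a group was 0.17 in the replication-dependent class, 0.12 in the variants and 0.11 over all genes.

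Other values were compared with this array pattern. The mean of 18S rRNA probe sets on arrays 3, 4, 5 and 6 was 12.37, 12.56, 12.52 and 12.46 after cisplatin and 12.41, 12.44, 12.49 and 12.51 in controls. The fibroblast marker mean was 3.53, 3.99, 3.84 and 3.80 after cisplatin and 3.47, 3.73, 3.61 and 3.63 in controls. Both were lowest on array 3 of each group, where the replication-dependent median was below 0. On control array 6, where that median was lowest, 18S was the highest of the 4 and the marker mean was the second highest. Of the 10 markers Lox had the widest spread. It read 4.066, 6.012, 5.435 and 5.509 after cisplatin and 4.033, 5.770, 5.403 and 4.550 in controls. The order of the marker mean therefore depends in part on 1 gene. The mean of the S-phase genes was at 9.95 on all 4 cisplatin arrays and at 9.83 to 9.89 on the controls. The difference between the 3′ and 5′ probe sets of Actb, a measure of RNA integrity, was 0.50 to 0.57 over the arrays. The part of these in the histone values was not tested.

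**Figure D5:**
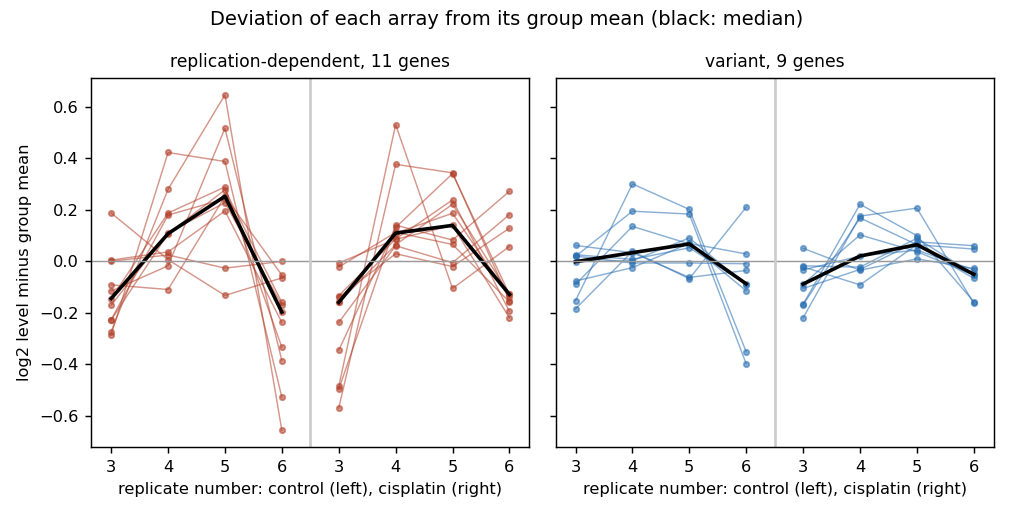
Deviation of each histone gene above background from its group mean (log2) on each of the 8 arrays, as points, with the class median as a line, for 11 replication-dependent genes and 9 variants. The replication-dependent medians are above 0 on arrays 4 and 5 and below 0 on arrays 3 and 6 in both groups, from -0.20 to 0.25.

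Genes for the synthesis, maturation and decay of the replication-dependent mRNAs were measured beside them. Of 18 such genes of 19 listed, 2 were higher and 1 lower, with a median change of 0.03. These counts are near the shares over all genes, 11.6% higher and 7.69% lower. The stem-loop binding protein gene Slbp was at 0.08 ± 0.05 (SE, adjusted p = 0.345, limma). Npat, which encodes the coactivator of histone gene transcription in S phase, was at -0.14 ± 0.05 (SE, adjusted p = 0.105, limma), and Casp8ap2, which encodes its partner FLASH, at -0.06 (adjusted p = 0.477, limma). Lsm10, a subunit of the U7 particle that cuts histone pre-mRNA, rose by 0.30 ± 0.08 (SE, adjusted p = 0.0234, limma). Srrt, which encodes the cap-associated protein ARS2, rose by 0.22 ± 0.06 (SE, adjusted p = 0.0265, limma). Smg1, a kinase of mRNA decay, fell by 0.31 ± 0.08 (SE, adjusted p = 0.0191, limma). Each of these 3 calls was lost when some single arrays were left out, and the adjusted p reached 0.159 for Lsm10, 0.310 for Srrt and 0.105 for Smg1 over the alternatives.

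Chaperones that carry histones to replicated DNA gave 1 call, a lower one, among 8 measured genes of 13 listed. Over all genes 7.69% were called lower. The median change of the 8 was 0.02. Mms22l, whose protein works with TONSL at stalled forks, fell by 0.43 ± 0.07 (SE, adjusted p = 0.00222, limma). Asf1b was at 0.03 (adjusted p = 0.794, limma) and Chaf1b, a subunit of the CAF-1 chaperone, at 0.12 ± 0.06 (SE, adjusted p = 0.172, limma). Asf1a and Chaf1a were not analysed here.

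The list of variant chaperones and exchangers, which also holds the variant Cenpa itself, gave 5 lower and 3 higher calls among 23 measured genes of 27 listed. Over all genes 7.69% were lower and 11.6% higher. The median change of the list was -0.05. For H2A.Z, the p400 exchanger gene Ep400 fell by 0.24 ± 0.05 (SE, adjusted p = 0.0106, limma) and its complex member Yeats4 by 0.18 ± 0.05 (SE). The H2A.Z chaperone gene Anp32e fell by 0.20 ± 0.05 (SE), and Znhit1 of the SRCAP complex rose by 0.18 ± 0.05 (SE). Uncalled genes of the list included Vps72 (-0.05), Ruvbl1 (-0.07), Ruvbl2 (0.06), Dmap1 (0.15) and Actl6a (-0.12), at adjusted p of 0.0866 to 0.816 (limma). A difference between the complexes was not tested. For H3.3, Cabin1 of the HIRA complex fell by 0.29 ± 0.08 (SE), Hira itself was at -0.29 ± 0.10 (SE, adjusted p = 0.0571, limma) and Daxx at -0.06 (adjusted p = 0.567, limma). Ubn1 of the same list was at 0.19 ± 0.06 (SE, adjusted p = 0.0542, limma), with every cisplatin array above every control array. Ubn2 was at -0.12 ± 0.07 (SE, adjusted p = 0.266, limma). Cenpa, the centromeric H3 variant, which the symbol rule leaves out, fell by 0.21 ± 0.06 (SE, adjusted p = 0.0289, limma), and Mis18a, needed to load it, rose by 0.18 ± 0.05 (SE). Tspyl1, a relative of the NAP1 chaperones, rose by 0.38 ± 0.10 (SE). Each of these 8 calls was lost under at least 1 alternative, Ep400 only when the probe sets were averaged (adjusted p = 0.102).

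Cell cycle genes were measured because the replication-dependent mRNAs follow S phase. Of 25 S-phase genes 4 rose (Gins3 by 0.50, Ccne2 by 0.39, Rrm2 by 0.26 and Fen1 by 0.19) and none fell, with a median of 0.09. Of the 15 replication-dependent histone genes 2 fell and none rose. Over all genes, 11.6% were called higher and 7.69% lower. Of 24 genes of G2 and mitosis 19 fell and none rose, with a median of -0.26, among them Plk1 by 0.77, Aurka by 0.50, Tpx2 by 0.48, Kif11 by 0.42, Cenpf by 0.41 and Cenpe by 0.38. The calls of Gins3 and Ccne2 and of these 6 held under every alternative run, while Rrm2 and Fen1 were lost with centred arrays and with the most variable probe set (adjusted p = 0.0565 and 0.0630). Fen1 was also lost when any one of cisplatin replicates 3, 5 and 6 or control replicates 3, 4 and 5 was left out (adjusted p up to 0.0925). How the changes of the cell cycle genes relate to those of H1f2, H4c9 and H1f10 was not tested. Whether the share of cells in each phase changed was not tested.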

How the data were processed

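Total RNA from 8 mouse ES cell samples was read on Affymetrix arrays, and the authors deposited 1 table of log2 levels. Per the submitters' processing notes they used RMA and limma, with versions not given in the sources used here. RMA corrects background, normalizes and summarises each probe set on the log2 scale, so the scale between arrays is set by it.

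Of 45141 probe sets, 28898 were annotated to 1 gene, 551 to several and 15588 to none, and 104 were controls. The 1-gene probe set with the highest mean over the 8 arrays stood for each of 17098 genes. RefSeq (GRCm38.p6) held 16937 of them, and the promoter table matched 22 of the 27 members. Groups were compared with limma 3.58.1 (lmFit and eBayes, two-sided) in R 4.3.3, with p-values adjusted by Benjamini-Hochberg over all 17098 genes and a threshold of 0.05. Tables and figures used Python 3.11.15, pandas 2.3.3 and matplotlib 3.10.9. Tested on simulated data, the fit recovered 99 of 100 changes of 1 and 68 of 100 of 0.5 on the log2 scale and called 8 unchanged genes. Recovery at the wider spread of the replication-dependent class (median SD within a group 0.17, against 0.11 over all genes) was not tested separately.

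The members and gene lists were chosen with earlier results of these data known, and the list of histone genes outside the symbol rule after the values were seen. Named were every called member, the variants above background, the 8 brightest uncalled replication-dependent genes, up to 6 called genes of each list by p, and Slbp, Npat, Casp8ap2, Asf1a, Asf1b, Chaf1a, Chaf1b, Hira, Daxx, Atrx and Cenpa. The remaining members, Znhit1 and Mis18a were named after their values were seen. So were Ubn1, Ubn2, Vps72, Ruvbl1, Ruvbl2, Dmap1, Actl6a and the uncalled fibroblast markers above background. Atrx was not analysed here. Alternatives were other probe set choices, filters, centring, quantile normalization, a trend or robust variance, a replicate block and leaving out each array.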

Additional observations from a re-analysis of the deposited data

Results flagged for a closer look

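In 4 of 126 groups of 4 arrays tested, 1 array stood far from the rest. The groups were those of 63 genes, the 27 histone genes and most other named genes. Chance alone does this in about 1 in 20 groups. H4c8 on control array 5 was at 3.41 on the log2 scale, with the next control array at 3.10. H1f7 on control array 5 was at 2.49, with the next at 2.91, and the gene was below background in both groups. H2az1 on control array 3 was at 13.06 against 13.04 for the next, a small gap in a tight group. Chaf1b on control array 6 was at 7.83, with the next at 7.69. None of these 4 genes passed the test between groups.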

How the results depend on the processing

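Over 474 combinations of a histone gene with an alternative setting, 452 kept their side of the threshold (438 with the same sign and 14, in 7 uncalled genes, with the other), 20 passed it in addition, 2 lost it (H4c9, without control replicate 4 or 5) and no called gene changed direction. H1f2 and H1f10 passed under every setting that measured them. Replication-dependent genes called lower numbered 2 as reported, 1 with only probe sets of no suffix (H1f2 has none), 6 with centred arrays and 1 at the stricter threshold of 0.01, and 1 to 3 when an array was left out. None was called higher under any setting. Their median was -0.22 with centred arrays and -0.14 to -0.07 when an array was left out. Variants called lower numbered 4 with centred arrays, 2 with an intensity trend and 1 to 2 when an array was left out (2 without control replicate 6). Variants called higher numbered 1 without dim genes, 3 with the trend and 0 to 2 when an array was left out (2 without control replicate 4). The variant median was -0.016 with the most variable probe set, -0.086 without dim genes, -0.083 with centred arrays and 0.03 to 0.06 when an array was left out. Other than by construction (fewer genes, another centre), the cause was not tested. The calls of Thy1, Fbln2 and Nanog were also each lost under at least 1 alternative.

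The replicate numbers were shared by the groups, but nothing says that they pair samples. Deviations of same-numbered arrays correlated at 0.20 (replicate 3), 0.18 (4), 0.20 (5) and 0.07 (6) over genes, and control array 6 correlated best with cisplatin array 3 (0.11). With the replicate number as a block, 3 replication-dependent genes were lower, with H2bc4 added (adjusted p = 0.00686, limma), and 1 variant was higher, H2aj (adjusted p = 0.00673, limma). Members near the background probes have little room to show a fall.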

Other observations

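Histone probe sets and genes outside the symbol rule or shared by several genes gave the following values, chosen after the data were seen. The H2A genes H2ac18 and H2ac19 shared 2 probe sets, which changed by -0.06 ± 0.12 (SE, adjusted p = 0.814, limma over probe sets) and by less than 0.01. A probe set shared by H3f3a and its pseudogene H3f3a-ps2 changed by 0.00 (adjusted p = 0.992, limma over probe sets). H2aw, a clustered H2A gene, read 4.57, 5.21, 5.42 and 4.80 after cisplatin and 5.80, 6.26, 6.31 and 4.92 in controls. Its change of -0.82 ± 0.30 (SE, adjusted p = 0.0830, limma) did not pass the test, and replicates 4 and 5 were above 3 and 6 in both groups. H2bu2, an H2B gene, showed the same order of arrays with a change of -0.34 ± 0.21 (SE, adjusted p = 0.323, limma). Of 10 such histone genes measured, 6 were below background in both groups, and Cenpa alone passed the test.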
